A study of Homo sapiens with 12 samples.

Results

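Chromosome 19 carries the densest collection of C2H2 zinc-finger genes in the human genome, most of them in tandem clusters that arose by repeated gene duplication. The genes described here are the protein-coding genes of chromosome 19 whose symbol is ZNF followed by digits, taken from the GENCODE annotation: 240 of the 62703 gene rows measured. Polyadenylated RNA was sequenced from HCT116 cells, an established human colorectal carcinoma line with no engineered allele, 48 h after transfection of siRNA against hnRNP U or of control siRNA. For each siRNA, total RNA and RNA of the heavy polysomal fractions (HP, mRNAs carrying many ribosomes) were sequenced in 3 replicates, which gives 12 libraries in 4 groups: hnRNP U siRNA total, control siRNA total, hnRNP U siRNA HP and control siRNA HP. The study listed 2 siRNAs against hnRNP U, and which of them the libraries came from is not given in the sources used here. The design asks how hnRNP U silencing changed mRNA levels, HP levels and the HP/total ratio, which the study uses as its measure of translational efficiency.

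A C2H2 zinc finger is a short fold held by a zinc ion that contacts a few bases of DNA, and proteins with long arrays of fingers recognise long sites. Most of the chromosome 19 family also carry a KRAB domain, which binds the corepressor TRIM28, a scaffold that brings the histone methyltransferase SETDB1 and HP1 proteins to the bound site. KRAB zinc-finger proteins are best known for silencing transposable elements, and their own clusters are covered by repressive chromatin in many cell types. From the translated reference transcripts, the 240 genes encode 170 to 1346 amino acids (median 576.5) with 1 to 36 fingers (median 12). A pattern for the KRAB A box that fixes its tryptophan was found in 168 of the 240 proteins (70.0%). With any residue allowed at that position, a choice made after the data were seen, it was found in 185 (77.1%), and the 17 proteins gained were all encoded between 43.5 and 45.1 Mb in the cluster numbered 7 below. Genes called with or without the box are those with or without a match to the pattern. A protein without a match may still hold a KRAB domain, and the share of such misses was not measured.

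The libraries held 30305012 to 39761103 counts. The silenced gene itself, HNRNPU, fell to 159 ± 9.47 CPM (counts per 1000000) in hnRNP U siRNA total RNA, against 1030 ± 67.9 CPM in control siRNA total RNA, and to 78.3 ± 3.71 CPM in hnRNP U siRNA HP RNA, against 1080 ± 61.5 CPM in control siRNA HP RNA (SD, n = 3 each), which matches the labels. Of the epithelial markers, EPCAM, CDH1, KRT8, KRT18 and KRT19 were expressed and VIL1 was near 0, and PTPRC, CD3E, CD68, PECAM1, COL1A2 and ALB, which mark other cells, averaged at most 0.14 CPM in any group. The exceptions were COL1A1 and ACTA2, and both fell with hnRNP U siRNA. COL1A1 had 9.98 ± 0.497 CPM in hnRNP U siRNA total RNA and 16.7 ± 0.649 CPM in control siRNA total RNA (log2 fold change -0.75, and -1.01 in HP RNA). ACTA2 had 2.55 ± 0.522 CPM in hnRNP U siRNA total RNA and 4.79 ± 0.542 CPM in control siRNA total RNA (-0.91, and -1.08 in HP RNA). The part of this change in the results below was not tested. All CPM values below were scaled by the trimmed mean of M values (TMM), and ± is the SD over 3 replicates.

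The family divided into genes with an mRNA in these cells and genes with almost none. In all, 152 of the 240 (63.3%) had enough counts to be tested, 88 did not, and 33 of the 88 had a count of 0 in all 12 libraries. As the filter on counts defines both sets, it also sets them apart by level. The highest mean among the untested genes was 0.1358 CPM (ZNF763), and the lowest among the tested genes was 0.3271 CPM (ZNF846). As both ends were taken from the family itself, no member can lie between them, so this gap is not compared with other genes. Only 8 of the 240 genes (3.33%) had a mean between 0.1 and 1 CPM, against 1574 of 20026 coding genes genome-wide (7.86%) and 8 of the 236 ZNF genes of other chromosomes (3.39%), while 54 (22.5%) lay above 0 and at or below 0.1 CPM. In a single library, a count of 0 allows up to 3 counts, or 0.099 CPM in the smallest library. The limit over all 12 libraries together is lower. The 33 genes at 0 were thus not detected at this depth rather than shown to be absent, and the other untested genes had some counts. The share of tested genes was 84.7% for the 236 ZNF genes of other chromosomes and 63.7% for all coding genes.

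**Figure D1:**
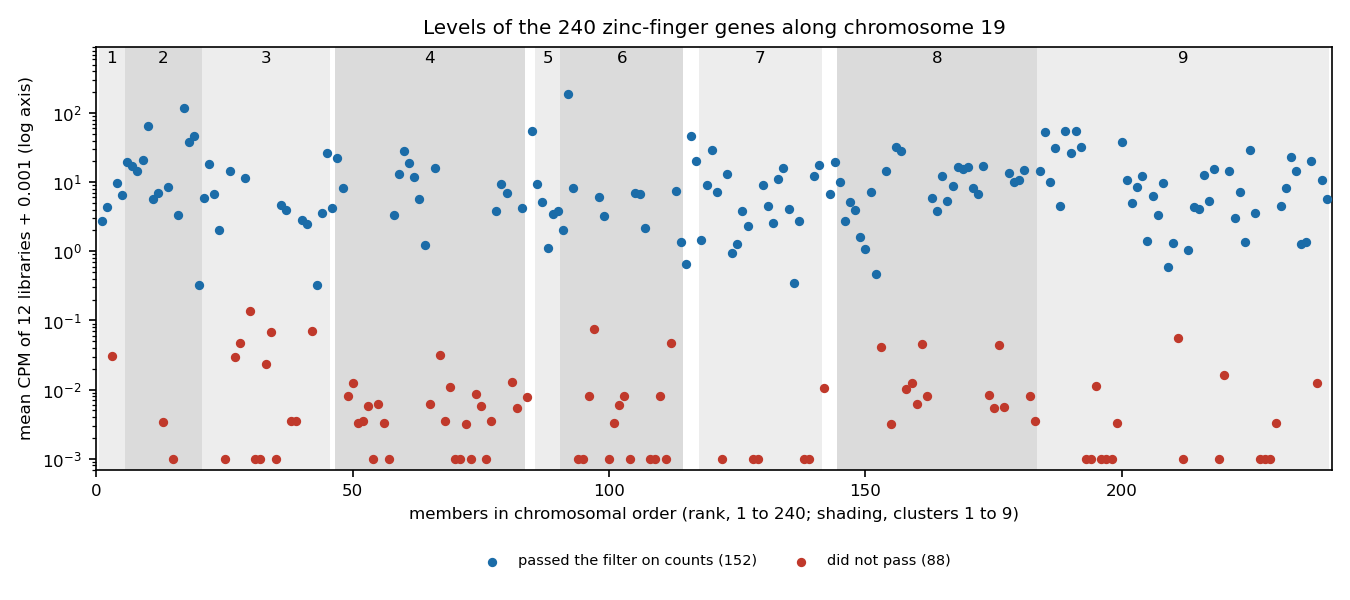
Mean CPM over the 12 libraries plus 0.001, on a log axis, for the 240 zinc-finger genes in their order along the chromosome; shading and numbers mark the 9 clusters, blue points the 152 genes that passed the filter on counts and red points the 88 that did not. The filter sets blue and red points apart by level, and blocks of neighbouring red points lie inside clusters 3, 4, 6, 8 and 9.

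Untested and tested genes often stood in blocks of neighbours. With neighbours at most 1 Mb apart placed together, 231 genes fell into 9 clusters and 9 lay outside. The largest were cluster 9 at the end of the long arm (chr19:55476617-58481230 of GRCh38, 57 genes, 41 tested), cluster 8 (chr19:51571283-53580269, 39 genes, 26 tested) and cluster 4 next to the centromere on the short arm (chr19:19668796-24129968, 37 genes, 14 tested). Cluster 4 had the lowest share of tested genes, 37.8%, followed by cluster 6 with 41.7% (10 of 24) and cluster 3 with 52.0% (13 of 25). Cluster 5, with 5 genes, was tested in full.

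In cluster 4, 9 neighbouring genes, ZNF506 to ZNF66 (chr19:19785839-20809995), held 15 counts in all 12 libraries together. Among them was ZNF93, known for binding LINE-1 elements, with 1 library at 0.0279 CPM and 11 libraries at 0. The next 7 genes, ZNF85 to ZNF493, were all expressed, at means of 1.241 to 27.83 CPM. After ZNF429, which was not tested, and ZNF100 came ZNF43 to ZNF730 (chr19:21804946-23147221), 11 genes with 25 counts in all. ZNF91, a repressor of SVA retrotransposons that lies beyond that block, was expressed at 9.44 ± 0.811 CPM in hnRNP U siRNA total RNA and 11.9 ± 0.604 CPM in control siRNA total RNA. Blocks of the same kind in other clusters were ZNF582 to ZNF835 in cluster 9 (7 genes, 5 counts), ZNF790 to ZNF420 in cluster 6 (5 genes, 6 counts), ZNF569 to ZNF571 in cluster 6 (5 genes, 22 counts) and ZNF418 to ZNF135 in cluster 9 (4 genes, 1 count). ZNF331 and ZNF382, both described as silenced by methylation in tumours, were at 0 in 11 and 9 of the 12 libraries. No comparison of siRNAs was possible for the 88 untested genes, and no library of either siRNA gave any of them more than 13 counts.

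Expressed members were of low abundance. The 152 tested genes had a median of 7.15 CPM (quartiles 3.74 and 14.9), against 18 CPM over all 15920 genes tested, neither scaled by gene length. Only ZNF146 and ZNF121 exceeded 100 CPM. ZNF146, which consists almost wholly of fingers and was described as overexpressed in colorectal cancer, had 234, 223 and 219 CPM in hnRNP U siRNA total RNA, against 241, 220.2 and 227 CPM in control siRNA total RNA. ZNF121 had 157, 145 and 152 CPM in hnRNP U siRNA total RNA, against 148, 147 and 152 CPM in control siRNA total RNA. For both genes the siRNA groups overlapped. Per kilobase of annotated exon, ZNF146 also led, at 54.41 CPM per kb in hnRNP U siRNA total RNA and 55.34 in control siRNA total RNA, followed by ZNF121 at 20.89 and 20.54. Genes with a KRAB A box by the wider pattern were tested less often, 109 of 185 (58.9%), than genes without one, 43 of 55 (78.2%), and their median level was 6.69 CPM, against 12.4 CPM for the tested genes without it.

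In total RNA, hnRNP U silencing lowered more of the zinc-finger genes than it raised. Of the 152 tested, 47 were lower and 15 higher at an adjusted p under 0.05 (edgeR quasi-likelihood test, Benjamini-Hochberg over all 15920 genes tested), or 30.9% and 9.87%. Over all genes tested, 29.3% were called lower and 28.0% higher, so that the share of lower calls was close to the background and the share of higher calls was below it. The median log2 fold change was -0.10, against 0 over all genes, and 50 of the 152 values were positive. ZNF genes of other chromosomes showed 53 higher and 55 lower among 200, with a median of 0.01, and the other coding genes of chromosome 19 showed 234 higher and 200 lower among 781, with a median of 0.03. Zinc-finger genes were measured less precisely (median SE 0.09 on the log2 scale, against 0.07 over all genes). Most changes were small: 45 of the 62 called genes changed by under 0.5 on the log2 scale, and only ZNF264 and ZNF254 changed more than 2-fold. In bulk RNA, fewer cells with a transcript and less of it per cell cannot be told apart.

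ZNF264 (ENSG00000083844.10, chr19:57191500-57222846, cluster 9) changed most. It had 20.1, 20.2 and 20.4 CPM in hnRNP U siRNA total RNA, against 58.1, 56.9 and 53.6 CPM in control siRNA total RNA (log2 fold change -1.48, SE 0.05, edgeR adjusted p = 1.2e-12). In HP RNA it had 23.0, 23.5 and 24.4 CPM with hnRNP U siRNA, against 57.2, 55.5 and 51.2 CPM with control siRNA (-1.24, SE 0.07, edgeR adjusted p = 1.1e-10). The silenced and control libraries were far apart in both kinds of RNA. ZNF264 carries a KRAB A box and 13 fingers, and the function of the protein is little known.

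ZNF264 was also 1 of 16 family members (6.67%) whose 3′ UTR holds GTATGCT, the 7 bases complementary to bases 2 to 8 of the guide strand expected from the first siRNA against hnRNP U listed by the study. Such seed matches are shown because siRNAs can lower transcripts through them, as microRNAs do. The match was searched on the mRNA strand only, in the reference transcript of each gene, and 1247 of 20026 coding genes (6.23%) held it in 3′ UTRs of any length. The following stretches are given 5′ to 3′ on the mRNA strand, with the match in capitals, for the 4 tested members with a match that were called in total RNA and for 1 that was not.
ZNF264: ttatttaataGTATGCTtaattttctg
ZNF100: tgcattcaaaGTATGCTtaactttttg
ZNF562: tagtctttctGTATGCTttttaaaaaa
ZNF616: aatcctgtaaGTATGCTgaacatgaaa
ZNF557: gtatagtttgGTATGCTataaaagcct
These lie at chr19:57215774-57215800, chr19:21725690-21725716 (minus strand), chr19:9646420-9646446 (minus strand), chr19:52113381-52113407 (minus strand) and chr19:7085028-7085054 of GRCh38, in the order of the lines above.

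Among the 9 tested members with the match, 3 were lower in total RNA (ZNF264, ZNF100 at -0.50 and ZNF562 at -0.14 on the log2 scale, the last with 50.02% of its windows also found in other genes and an antisense gene across it), 1 was higher (ZNF616 at 0.18) and 5 were not called, with a median of 0.06 over the 9. Genome-wide, 59.9% of the 930 tested coding genes with the match were lower in total RNA, against 31.6% of the 11828 without it. In HP RNA these shares were 56.9% and 28.7%. Without the 9 genes, 44 of 143 members were lower and 14 higher. Leaving out so few genes can hardly move the shares over all 152, so nothing about the match is read from it. UTR length was not matched between the classes, and the part of the match in the change of ZNF264 was not tested.

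ZNF254 (ENSG00000213096.11, chr19:24033405-24129968), a KRAB gene with 13 fingers at the centromeric end of cluster 4, was the other gene past 2-fold. It had 2.82, 2.83 and 3.09 CPM in hnRNP U siRNA total RNA, against 7.52, 7.05 and 6.42 CPM in control siRNA total RNA (-1.26, SE 0.11, edgeR adjusted p = 5.9e-08). In HP RNA the values were 1.86, 2.25 and 1.82 CPM with hnRNP U siRNA, against 5.0, 5.32 and 5.14 CPM with control siRNA (-1.42, SE 0.14, edgeR adjusted p = 1.5e-07). Its 3′ UTR held no seed match, and the groups did not overlap in either RNA. Next came ZNF333 (chr19:14689801-14733746), which lies outside the clusters, with 3.05, 3.57 and 2.95 CPM in hnRNP U siRNA total RNA, against 6.84, 5.28 and 5.91 CPM in control siRNA total RNA (-0.92, SE 0.12, edgeR adjusted p = 9.6e-06). ZNF8, in cluster 9, had 12.7, 11.4 and 14 CPM in hnRNP U siRNA total RNA, against 19.9, 20.4 and 22.4 CPM in control siRNA total RNA (-0.72, SE 0.08). As 20.7% of the annotated exon bases of ZNF8 overlap a readthrough gene on the same strand, some of its reads may have been assigned elsewhere. The remaining genes of the 10 that fell most, ZNF493, ZNF599, ZNF554, ZNF180, ZNF749 and ZNF283, changed by -0.71 to -0.59. The call of ZNF599, under 3 CPM in every library, was lost without hnRNP U siRNA total replicate 1 (adjusted p = 0.067) or control siRNA total replicate 3 (adjusted p = 0.057).

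**Figure D2:**
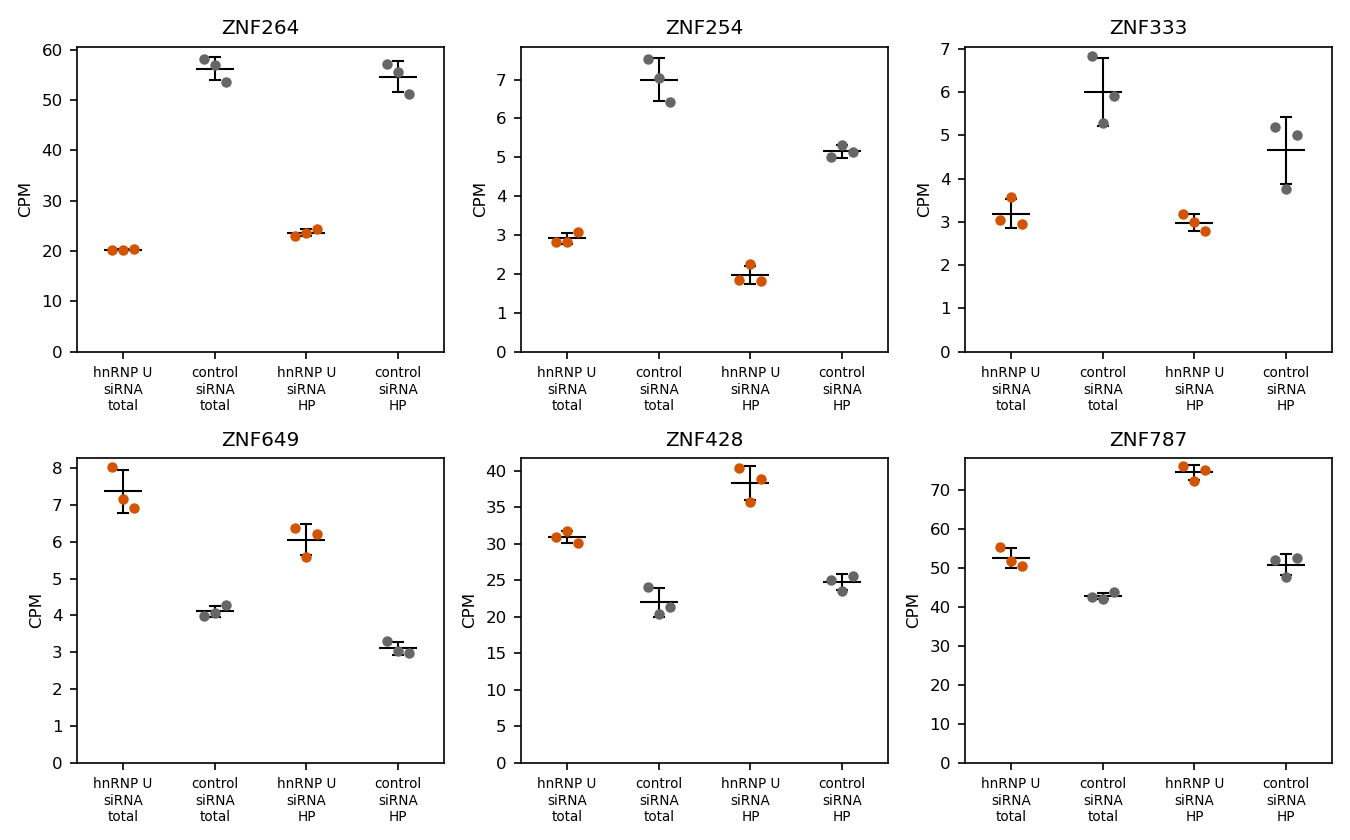
CPM of 6 zinc-finger genes in each library, with the mean (line) and SD (bars) of 3 replicates; hnRNP U siRNA groups are orange and control siRNA groups grey, total RNA on the left and HP RNA on the right of each panel. ZNF264, ZNF254 and ZNF333 were lower and ZNF649, ZNF428 and ZNF787 higher with hnRNP U siRNA, with no overlap between siRNAs within total RNA or within HP RNA.

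The genes that rose did so by less, and 10 of the 15 had no match to the KRAB A box pattern. Those 10 were 23.3% of the 43 tested genes without a match to the wider pattern, below the 28.0% called higher over all genes tested. ZNF649 (ENSG00000198093.11, chr19:51889235-51905040, cluster 8), a KRAB protein described as a repressor of AP-1 and serum response element reporters, rose most. It had 8.02, 7.16 and 6.93 CPM in hnRNP U siRNA total RNA, against 3.99, 4.07 and 4.28 CPM in control siRNA total RNA (0.83, SE 0.10, edgeR adjusted p = 3e-06). In HP RNA it had 6.38, 5.58 and 6.23 CPM with hnRNP U siRNA, against 3.30, 3.04 and 2.97 CPM with control siRNA (0.94, SE 0.12, edgeR adjusted p = 5.2e-06). Its neighbour ZNF577, which shares 2.7% of the exon bases of ZNF649 on the same strand, was lower in both RNAs (-0.56 and -0.55). ZNF428 (chr19:43607224-43619629, cluster 7), a short protein with 1 finger match, had 30.9, 31.8 and 30.2 CPM in hnRNP U siRNA total RNA, against 24.1, 20.4 and 21.4 CPM in control siRNA total RNA (0.49, SE 0.06). Of its exon bases, 32.1% lie opposite SRRM5 on the other strand, and the strand setting of the counting is not given in the sources used here. ZNF787 (chr19:56087366-56121295, cluster 9) had 55.5, 51.8 and 50.5 CPM in hnRNP U siRNA total RNA, against 42.6, 42.2 and 43.8 CPM in control siRNA total RNA (0.29, SE 0.05). The other 7 of the 10 that rose most were ZNF296, ZNF584, ZNF526, ZNF446, ZNF473, ZNF114 and ZNF440, at 0.25 to 0.42. Of these, ZNF473 encodes a component of histone pre-mRNA processing and ZNF296 a factor studied in reprogramming of pluripotent cells. The call of ZNF446 in total RNA did not pass in DESeq2 (adjusted p = 0.08), nor in edgeR after leaving out any of 5 single libraries (adjusted p of 0.063 to 0.13), and 32.69% of its 75-base windows also occur in other genes, with ZNF324 and SLC27A5 overlapping it. That of ZNF114 did not pass in DESeq2 (adjusted p = 0.079), nor in edgeR after leaving out any of 4 single libraries (adjusted p of 0.05 to 0.16).

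Calls in total RNA differed with the match to the KRAB A box pattern. By the wider pattern, 39 of 109 tested KRAB genes were lower and 5 higher, with a median of -0.13. Of the 43 genes without a match, 8 were lower and 10 higher, with a median of -0.03. The strict pattern gave 36 lower and 5 higher of 96, and 11 lower and 10 higher of 56. As a share, higher calls made up 4.59% of KRAB genes by the wider pattern, 23.3% of the genes without the box and 28.0% of all genes tested. Lower calls made up 35.8%, 18.6% and 29.3% of the same classes, so the KRAB genes departed from all genes mainly in their few higher calls. The counts by number of fingers below stand beside the same 28.0% higher and 29.3% lower. KRAB genes were also the less abundant ones, and this was not matched. Genes with 1 to 8 fingers gave 9 higher and 10 lower of 37, those with 9 to 14 fingers 3 higher and 23 lower of 72, and those with 15 or more 3 higher and 14 lower of 43. These are counts over genes that share sequence and position, and no test was attached to the differences between classes.

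Along the chromosome, lower calls appeared in every cluster, beside 29.3% of all genes tested called lower and 28.0% called higher. In cluster 4, 13 of 14 tested genes had negative values in total RNA, and 7 were called lower and 0 higher: ZNF714, ZNF431, ZNF708, ZNF493, ZNF100, ZNF91 and ZNF254. ZNF714, the most abundant of them, had 31.9, 30.2 and 30.1 CPM in hnRNP U siRNA total RNA, against 37.8, 38.9 and 37.8 CPM in control siRNA total RNA (-0.32, SE 0.05). In cluster 5, all 5 genes had negative values and ZNF302, ZNF181, ZNF599 and ZNF30 were called lower. Cluster 9 was mixed, with 13 lower (31.7%) and 5 higher (12.2%) of 41. So was cluster 7, with 5 lower (26.3%) and 3 higher (15.8%) of 19. Their shares of lower calls were near that over all genes tested. The higher calls of cluster 9 were ZNF580, ZNF581, ZNF787, ZNF584 and ZNF446, the first 3 of which are neighbours. Outside the clusters the direction was the other way, with 4 higher (ZNF574, ZNF526, ZNF114 and ZNF473) and 1 lower (ZNF333) of 7. Coding genes without zinc-finger symbols that lie between the clustered genes showed 18 higher and 19 lower of 70, with a median of -0.01.

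**Figure D3:**
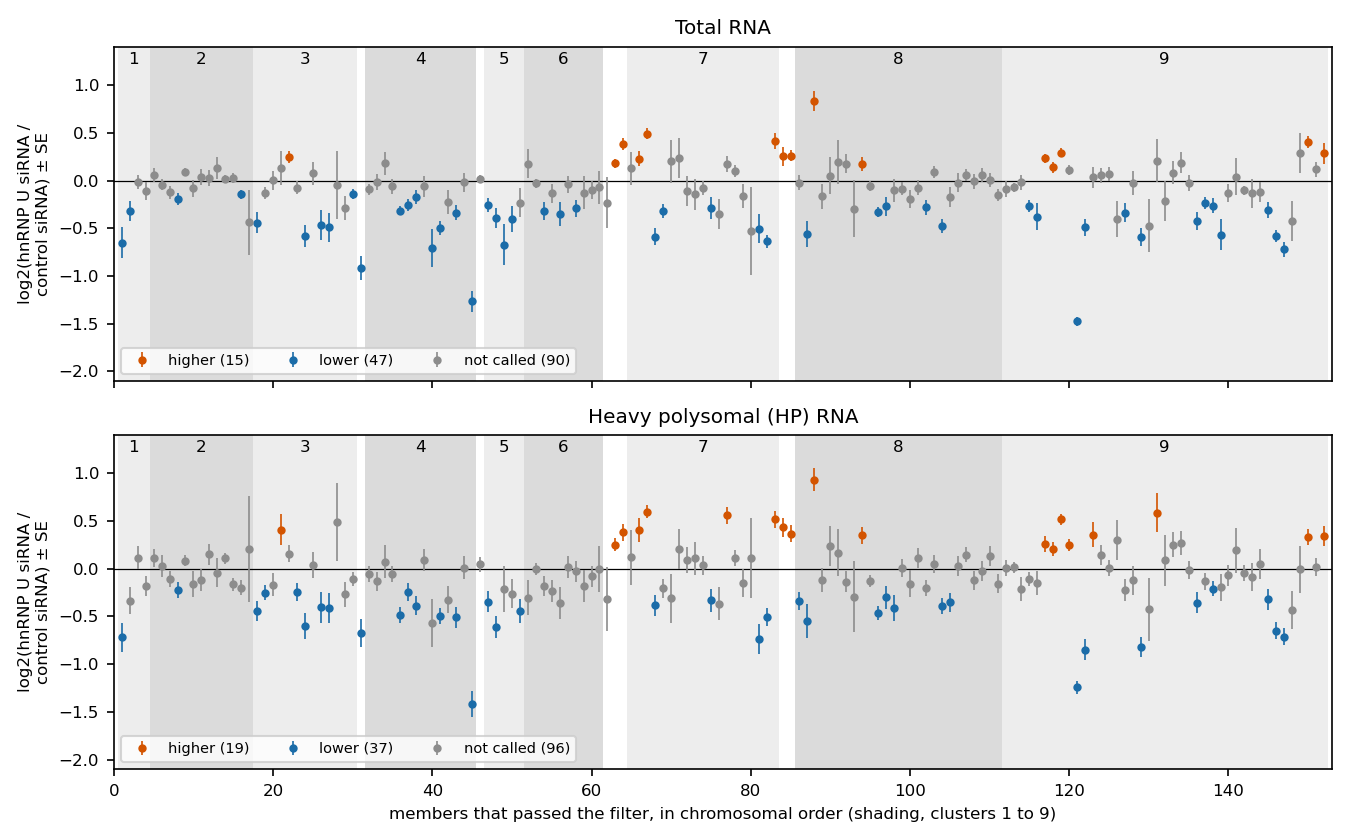
Log2 fold change of hnRNP U siRNA over control siRNA, with its SE, for the 152 tested zinc-finger genes in chromosomal order, in total RNA (top) and HP RNA (bottom); orange points were called higher, blue lower and grey not called at an adjusted p of 0.05. Total RNA shows 15 higher and 47 lower genes and HP RNA 19 and 37, with ZNF264 in cluster 9 and ZNF254 at the end of cluster 4 as the lowest points of both panels.

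HP RNA was sequenced in libraries of its own. In it, 37 of the 152 genes were lower and 19 higher with hnRNP U siRNA (24.3% and 12.5%), against 26.3% and 25.5% of all genes tested, and the median was -0.11, against 0.01. Of the genes called in total RNA, 31 were lower and 14 higher in both RNAs, and 0 were called in opposite directions. This overlap was not counted over all genes tested, so it is not read as a trait of the family. The HP and total libraries of a number were also taken to come from the same experiment. Another 6 were lower and 5 higher in HP RNA only, 16 lower and 1 higher in total RNA only, and 79 were called in neither. KRAB genes by the wider pattern gave 31 lower and 8 higher of 109, and genes without the box 6 lower and 11 higher of 43. Cluster 4 had 6 lower and 0 higher in HP RNA, cluster 5 had 3 lower and 0 higher, and cluster 6, with 3 lower calls in total RNA, had 0 of 10 called although 9 values were negative.

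Some genes stood out in HP RNA. ZNF805, next to ZNF264 in cluster 9, had 6.08, 5.21 and 5.82 CPM in hnRNP U siRNA HP RNA, against 10.9, 10.2 and 9.03 CPM in control siRNA HP RNA (-0.85, SE 0.11, edgeR adjusted p = 4e-06), and was -0.49 in total RNA. ZNF749, also in cluster 9, had 6.35, 6.04 and 5.68 CPM in hnRNP U siRNA HP RNA, against 10.6, 10.9 and 9.73 CPM in control siRNA HP RNA (-0.82, SE 0.10). For both genes all silenced libraries lay below all control libraries. ZNF226 (chr19:44165073-44178381, cluster 7) had 13.9, 14.6 and 14.7 CPM in hnRNP U siRNA HP RNA, against 8.44, 9.54 and 10.5 CPM in control siRNA HP RNA (0.56, SE 0.09, edgeR adjusted p = 7.4e-05). In total RNA its groups overlapped, at 11, 9.94 and 10.9 CPM with hnRNP U siRNA, against 9.48, 8.36 and 10.2 CPM with control siRNA (0.17, adjusted p = 0.095 from edgeR), although with the experiment as a block the gene passed in total RNA too (0.18, adjusted p = 0.049). ZNF787 rose to 76.2, 72.4 and 75.1 CPM in hnRNP U siRNA HP RNA, against 52.2, 47.8 and 52.7 CPM in control siRNA HP RNA (0.52, SE 0.06). The other named changes in HP RNA were ZNF112, ZNF544 and ZNF181, lower by -0.73, -0.65 and -0.61, and ZNF419, ZNF441 and ZNF576, higher by 0.59, 0.41 and 0.41. The calls of ZNF419 and ZNF441, both under 3 CPM, were lost with DESeq2 (adjusted p of 0.071 and 0.12) and without any of 4 single libraries each (adjusted p of 0.053 to 0.093 and 0.099 to 0.16). That of ZNF576 was lost without control siRNA HP replicate 1 (adjusted p = 0.062). Between 10.82% and 13.75% of the 75-base windows of ZNF805, ZNF112, ZNF544 and ZNF419 occur in another gene.

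Of the members chosen for a described role, ZNF649 rose most in the family, as given above. ZNF91, ZNF274 and ZNF808 were called lower in total RNA, where 40.8% of the 152 tested genes were called in either direction. ZNF91 fell in both RNAs: in HP RNA it had 6.32, 7.46 and 6.95 CPM with hnRNP U siRNA, against 9.78, 10.4 and 8.67 CPM with control siRNA (-0.51, SE 0.11), and in total RNA it was -0.34. ZNF274, which binds the 3′ ends of zinc-finger genes and brings SETDB1 there, had 7.10, 7.37 and 7.22 CPM in hnRNP U siRNA total RNA, against 9.33, 8.26 and 9.16 CPM in control siRNA total RNA (-0.31, SE 0.09, edgeR adjusted p = 0.0053). The groups were separate but close. ZNF808, a repressor of MER11 elements needed for pancreas development, was -0.27 in total RNA and -0.30 in HP RNA, with both calls lost with DESeq2 (adjusted p of 0.057 and 0.1) and without any of 3 and 5 single libraries (up to 0.16 in both). ZNF417 and ZNF587, paralogs that repress HERV-K elements and have 29.32% and 38.48% of windows in common with each other or with other genes, were not called in either RNA. The same held for ZNF224, a KRAB repressor of the aldolase A gene, and for ZNF350, a BRCA1-binding protein, whose 95% intervals in total RNA ran from -0.24 to 0.08 and from -0.36 to 0.46. ZNF175, first described as a repressor of HIV-1, was -0.02 in total RNA and -0.33 in HP RNA, where it was called lower.

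The change of the HP/total ratio between siRNAs, tested over all 12 libraries as an interaction, was called for 0 of the 152 genes without a block. With the culture (siRNA and experiment number) as a block, since the HP and total libraries of 1 number come from 1 experiment, 2 were called: ZNF787 (0.258, edgeR adjusted p = 0.037) and ZNF264 (0.265, edgeR adjusted p = 0.045). The blocked fit called 140 of all 15920 genes, or 0.879%. Over all genes tested 26 were called, or 0.163%, with 0.0817% in each direction without the block. At an unadjusted p under 0.05, 9 of the 152 passed (5.92%), 7 of them with a higher HP/total ratio after hnRNP U siRNA, against 1120 of 15920 genes (7.04%), so the share was not above the background. DESeq2, without a block, also called 0. Without the block, the lowest adjusted p was 0.33, for ZNF787, with a difference of 0.26 (95% interval 0.10 to 0.41). It was followed by ZNF264 at 0.27 (0.10 to 0.43), ZNF226 at 0.41 (0.15 to 0.68), ZNF547 at 0.74 (0.17 to 1.30) and ZNF175 at -0.28 (-0.52 to -0.04). The typical interval reached 0.29 to either side, 101 of the 152 intervals lay within 0.5 and 143 within 1 on the log2 scale, so that 2-fold changes of the ratio fell outside the interval for most of the genes. The median difference was 0.06, against 0.04 over all genes.

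Without regard to the siRNA, zinc-finger mRNAs stood lower in HP than in total RNA. With hnRNP U siRNA, 63 of the 152 genes were lower and 21 higher in HP than in total RNA (41.4% and 13.8%), against 33.7% and 34.4% of all genes tested (68.1% in either direction), with a median of -0.17. With control siRNA, 62 were lower and 15 higher (40.8% and 9.87%), against 32.0% and 33.1% of all genes tested (65.1% in either direction), with a median of -0.22, against -0.02 over all genes. In both siRNAs together, 53 genes were lower and 15 higher in each, and 0 were called in opposite directions, an overlap that was likewise not counted over all genes tested. The other coding genes of chromosome 19 moved the other way, with 369 higher and 172 lower of 781 and a median of 0.22 in control siRNA cells, and so did the 70 non-zinc-finger genes inside the clusters, with 37 higher, 14 lower and a median of 0.28. ZNF genes of other chromosomes gave 40 higher and 85 lower of 200, with a median of -0.15. TMM scaling makes each of these values relative to the other genes of the library.

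**Figure D4:**
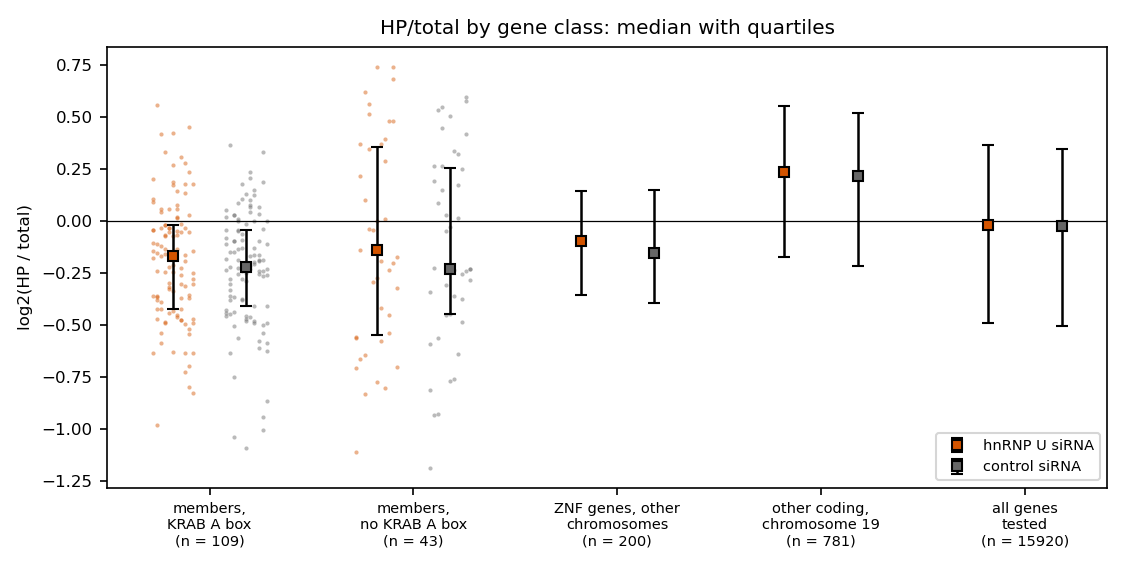
Log2 ratio of HP to total RNA in hnRNP U siRNA cells (orange) and control siRNA cells (grey); squares are medians and bars the quartiles of each gene class, and dots are single zinc-finger genes of chromosome 19. The classes with and without a match to the wider KRAB A box pattern have medians of -0.17 and -0.14 with hnRNP U siRNA and of -0.22 and -0.23 with control siRNA, and the class without a match is spread more widely.

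The genes that stood higher in HP RNA mostly had no match to the KRAB A box pattern. Of the 15 higher in control siRNA cells, 13 had no match to either pattern. Those 13 were 30.2% of the 43 tested genes without a match to the wider pattern. The share was 33.1% over all genes tested and 1.83% for KRAB genes, so the genes without a match were near the background. Lower calls made up 39.5% of the 43, 32.0% of all genes tested and 41.3% of KRAB genes. The median of the 15 was 6.0 fingers and 450.0 amino acids, against 12.5 fingers and 594.0 amino acids for the 62 lower ones. The highest ratio was that of ZNF444 (chr19:56132599-56160893), a SCAN-domain regulator of the scavenger receptor gene SCARF1. In control siRNA cells it had 34.7, 35.1 and 38.4 CPM in HP RNA, against 23.1, 24.6 and 23.9 CPM in total RNA (0.60, SE 0.06). It was followed by ZNF296 (0.58), ZNF653, described as a corepressor of the nuclear receptor SF-1 (0.55), ZNF579 (0.53) and ZNF784 (0.50). Of the 9 tested neighbours from ZNF628 to ZNF444 at the start of cluster 9, 7 were called higher in HP RNA with both siRNAs: ZNF444, ZNF579, ZNF784, ZNF580, ZNF581, ZNF787 and ZNF628. The other two were ZNF524 (-0.04 with hnRNP U siRNA and 0.15 with control siRNA, not called) and ZNF865 (-0.14 and -0.31, called lower in both). Of the 75-base windows of ZNF653, 19.09% also occur in other genes.

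The lowest ratio was that of ZNF358 (chr19:7515292-7521025). In control siRNA cells it had 10.3, 9.05 and 12.4 CPM in HP RNA, against 24.7, 22.3 and 25.6 CPM in total RNA (-1.19, SE 0.10). With hnRNP U siRNA the values were 11.5, 9.74 and 12 CPM in HP RNA, against 24.4, 23.8 and 22.8 CPM in total RNA (-1.11, SE 0.08). Its HP and total libraries were far apart with either siRNA, although 26.5% of its 75-base windows also occur in other genes. ZNF599, ZNF550, ZNF493 and ZNF875 followed at -1.09, -1.01, -0.94 and -0.93 in control siRNA cells. Of the abundant genes, ZNF121 was at -0.93, with 76.5, 80.4 and 77.4 CPM in HP RNA, against 148, 147 and 152 CPM in total RNA, ZNF146 was at -0.59 and ZNF317 at 0.07. By cluster, the medians in control siRNA cells were lowest in clusters 6 and 2, at -0.38 in both, and nearest 0 in clusters 5 and 3, at 0.01 and -0.03. Across the 152 genes the ratio in control siRNA cells had a Spearman correlation of -0.31 with the length of the 3′ UTR, -0.24 with the number of fingers and 0.14 with the mean CPM. These are descriptions over genes that share libraries and ancestry.

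The corepressors that KRAB proteins use were expressed with both siRNAs. TRIM28 had 1050 ± 50.2 CPM in hnRNP U siRNA total RNA and 1030 ± 78.8 CPM in control siRNA total RNA (0.02, SE 0.05). Of a list of 31 genes of this machinery, all of them tested, 10 were higher and 7 lower in total RNA (32.3% and 22.6%, against 28.0% and 29.3% of all genes tested). In HP RNA 8 were higher and 6 lower (25.8% and 19.4%, against 25.5% and 26.3%), and 0 changed their HP/total ratio. These shares were near the background, and the genes named next were chosen for their values. TASOR, a subunit of the HUSH silencing complex, fell to 47.2 ± 0.198 CPM in hnRNP U siRNA total RNA, against 87.0 ± 2.41 CPM in control siRNA total RNA (-0.89, SE 0.04, edgeR adjusted p = 5.1e-11), while MPHOSPH8, another HUSH subunit, rose by 0.38. CBX5, the HP1 alpha protein, rose to 375 ± 12.5 CPM in hnRNP U siRNA total RNA, against 216 ± 9.62 CPM in control siRNA total RNA (0.79, SE 0.04). DNMT3A, a de novo DNA methyltransferase, fell to 12 ± 1.14 CPM in hnRNP U siRNA total RNA, against 20.3 ± 0.23 CPM in control siRNA total RNA (-0.77, SE 0.07), and SETDB1 was -0.22. With control siRNA, 19 of the 31 were higher and 6 lower in HP than in total RNA (61.3% and 19.4%, against 33.1% and 32.0% of all genes tested). Their median of 0.19 was near the 0.22 of the other coding genes of chromosome 19, whereas the zinc-finger genes had a median of -0.22.

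Sequence shared between members sets a limit on single values. In the 240 reference transcripts a median of 0.93% of 75-base windows, the read length, also occurred in a transcript of another gene, 79 genes had none, 52 had over 10% and 11 over 50%, often with an antisense or readthrough gene. How reads matching several genes were counted is not given in the sources used here. Among the 118 tested genes with up to 10% shared windows, 38 were lower and 13 higher in total RNA and 27 lower and 15 higher in HP RNA, near the shares over all 152.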

How the data were processed

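Poly(A)-selected directional libraries (75-base single reads) were made and sequenced by the authors, who trimmed the reads, aligned them to hg38 with STAR and deposited raw counts per GENCODE v43 gene; the submitters' processing notes also name CASAVA 1.8. Strand setting and treatment of reads matching several genes are not given in the sources used here. Of 62703 gene identifiers, 62639 were found in GENCODE release 44, which gave symbols, positions (GRCh38) and reference transcripts. These were translated to count fingers and KRAB A boxes, and windows of 75 bases shared with other genes were counted. Clusters are runs of at least 3 genes with neighbouring starts at most 1 Mb apart, numbered from the short-arm end.

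Counts of 30305012 to 39761103 per library were filtered (edgeR filterByExpr, minimum count 10, 15920 genes kept), scaled by TMM and tested with the edgeR 4.0.16 quasi-likelihood test in R 4.3.3: hnRNP U against control siRNA in total RNA and in HP RNA, HP against total RNA for each siRNA (6 libraries each, no covariate), and the HP/total interaction over 12 libraries. Adjusted p-values are Benjamini-Hochberg values over all genes tested, with a threshold of 0.05, and intervals are 95%. The tests were checked on simulated data. Alternatives were DESeq2 1.42.0, its size factors in edgeR, no filter, a minimum count of 50, replicate blocks, leaving out each library, and leaving out genes with over 10% shared windows.

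Named genes were, where log2 CPM averaged 0 or more and the sign was shared by all 3 experiment numbers, the 10 called genes with the largest change each way in total and in HP RNA, the 5 with the lowest p for HP/total, the 5 highest and 5 lowest HP/total ratios with control siRNA, the 5 most abundant, and members with a textbook role. Genes named for their cluster, for a block of neighbours, for the seed match or from the corepressor list were added beside them after their values were seen. Members and lists were chosen with earlier results of these data known. The study gives 3 independent experiments per group, and the 4 libraries of a number carry one experiment code in their titles, so numbers were taken to pair libraries of an experiment. Deviations from group means correlated at 0.086 to 0.243 between total and HP libraries of one siRNA and number (-0.192 to 0.003 across numbers), and at 0.014 to 0.199 between siRNAs within a number (-0.22 to 0.074 across numbers). Blocked values are given where they change the call of a gene named by the rule that opens this paragraph, and not for other members. Intervals and limits of detection cover counting error and that spread only.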

Additional observations from a re-analysis of the deposited data

How the results depend on the processing

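Directions and counts of calls held under nearly all alternatives. DESeq2 called 51 genes in total RNA and 47 in HP RNA, and single libraries left out gave 47 to 57 and 44 to 53. For HP against total RNA these ranges were 70 to 82 with hnRNP U siRNA and 66 to 80 with control siRNA, and for the HP/total interaction 0 to 0. No value named above changed sign past a threshold. With the experiment number as a replicate block, 65 genes were called in total RNA (49 lower), 65 in HP RNA (45 lower) and 0 for the interaction. With the culture (siRNA and number) as the replicate block, 2 were called in the interaction, ZNF787 (0.258, adjusted p = 0.037 from edgeR) and ZNF264 (0.265, adjusted p = 0.045 from edgeR). Among the named genes the block also added the calls of ZNF226 in total RNA (0.18), ZNF121 in HP RNA (0.108), ZNF547 for HP against total RNA with hnRNP U siRNA (0.422) and ZNF428 with control siRNA (0.175), and changed no other call between siRNAs or fractions. The median HP/total difference was scale-dependent: 0.023 with DESeq2 or its size factors, -0.012 with no filter, and -0.03 to 0.096 with single libraries left out, the lowest without hnRNP U siRNA HP replicate 2, so no direction is read from it; the cause was not tested. Among the named genes, calls between siRNAs that DESeq2 did not make were those of ZNF446, ZNF114, ZNF784 and ZNF808 in total RNA and of ZNF419, ZNF441 and ZNF808 in HP RNA.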
